A study of Mus musculus with 146 samples.

Results

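The genes described here are 6 genes of arginine metabolism, Arg1, Arg2, Nos2, Slc7a2, Odc1 and Ass1, out of 22721 genes in the count table. They were chosen by name, with the wide spread of Arg1 over mice and the co-variation of the genes already known from these same libraries. The spread, the pair correlations and the most similar genes are therefore given as descriptions with no test. The libraries come from bone marrow-derived macrophages of 146 outbred mice, strain label Crl:CFW(SW)-US_P08 (CFW), all 16 weeks of age, 60 labelled male and 86 labelled female. Marrow cells were grown for 5 days in medium with 25% L929-conditioned medium, a source of macrophage colony-stimulating factor, and no further treatment was given. Each mouse gave 1 library of polyadenylated RNA, so no value has a technical repeat, and cells that had been exposed to an activating cytokine were not part of the design.

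Arginine enters macrophages through cationic amino acid transporters, of which Slc7a2 encodes one. Inside the cell it can be split by an arginase into ornithine and urea, or oxidised by inducible nitric oxide synthase, the product of Nos2, into nitric oxide and citrulline. Arg1 encodes the cytosolic arginase and Arg2 the mitochondrial one. Ornithine decarboxylase, encoded by Odc1, turns ornithine into putrescine, the first polyamine, and argininosuccinate synthase, encoded by Ass1, begins the return of citrulline to arginine. In mouse macrophages Arg1 is a textbook marker of activation by interleukin-4, and Nos2 of activation by interferon-gamma and bacterial lipopolysaccharide.

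In GRCm38 Arg1 (ENSMUSG00000019987) lies on the minus strand at chr10:24915221-24927484, and the other 5 genes lie on the plus strand. Arg2 (ENSMUSG00000021125) is at chr12:79130777-79156301, Nos2 (ENSMUSG00000020826) at chr11:78920787-78960254, Slc7a2 (ENSMUSG00000031596) at chr8:40862396-40922308, Odc1 (ENSMUSG00000011179) at chr12:17544794-17551505 and Ass1 (ENSMUSG00000076441) at chr2:31470207-31520672. All 6 encode proteins. The values are read counts over the exons of each gene, and 3 of the genes carry an uncertainty from sequence they share with others. Ass1 shares 38.6% of its 50-base stretches with the processed pseudogene Gm5424, and Odc1 shares 24.3% of its stretches with other genes, mainly processed pseudogenes. Of the exon bases of Arg2, 28.1% overlap the exons of Vti1b or of the antisense gene Gm48780, and the library kit does not mark strand. The counts of these 3 genes may hold or lack reads of those partners. Arg1 and Nos2 shared no stretch with another gene.

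The libraries held 14.5 to 121 M counts (M, 1e6), with a median of 43.8 M. They lay on 7 plates, where plate 1 held 6 libraries and every other plate between 22 and 24, and carried 28 collection date labels. Of these dates, 18 had libraries on 1 plate and 10 on 2 or more plates, so that plate and date overlap in part. The macrophage label fitted its markers, 7 genes that summed to between 11075.2 and 26170.9 CPM over all libraries. CPM is the count of a gene scaled to the TMM-normalised library size in M. Granulocyte precursor markers, 10 genes, summed to 77.75 to 1672.4 CPM. Osteoclast markers summed to at most 142.4 CPM in any library, stromal markers to at most 72.46 CPM, dendritic cell markers to at most 16.63 CPM, and markers of B cells, T and NK cells, megakaryocytes, mast cells and basophils, and erythroid cells each to at most 12.11 CPM. Y-linked counts went against the labelled sex in 6 libraries, 2 labelled male and 4 labelled female, and the sex differences that were called are also given without them.

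Slc7a2, Odc1 and Ass1 varied far less over the libraries than Arg1, which varied over orders of magnitude, and Arg2 and Nos2 were low. All 6 passed the filter on low counts that left 12060 genes for testing. Slc7a2 had a lowest level of 63.01, a median of 127.4 and a highest level of 255.2 CPM over the 146 libraries, and a mean of 130.2 ± 33.87 CPM (SD, n = 146). Odc1 ranged between 13.92 and 39.42 CPM with a median of 27.7 CPM. Ass1 ranged between 1.405 and 12.63 CPM with a median of 3.866 CPM. These 3 genes of transport, polyamine synthesis and citrulline recycling were detected in each library.

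Arg1, the cytosolic arginase, covered 0.01502 to 482.8 CPM with a median of 17.09 CPM. Its counts ran between 1 and 35428 per library. Arg2, the mitochondrial arginase, ranged between 0 and 8.459 CPM with a median of 0.5351 CPM. Nos2, the inducible nitric oxide synthase, ranged between 0 and 2.166 CPM with a median of 0.2188 CPM. The last 2 genes were close to the limit of detection in many libraries. Arg2 had 10 or fewer counts in 40 libraries and none in 2, and Nos2 had 10 or fewer counts in 78 and none in 1, so that single-library values of Nos2 rest on few reads.

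**Figure D1:**
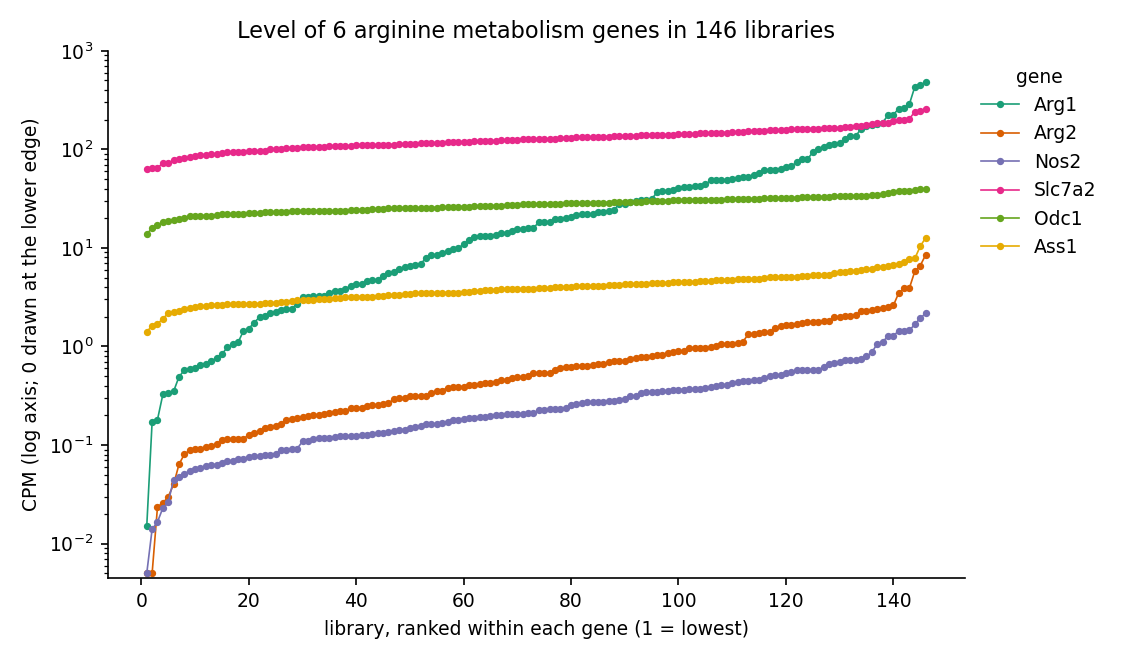
CPM of each of the 6 genes in 146 libraries (y, log axis), with the libraries ranked separately for each gene on x; each point is 1 library. Slc7a2, Odc1 and Ass1 form nearly level lines, whereas Arg1 climbs from 0.01502 to 482.8 CPM and crosses all 3.

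Per kilobase of exon, the mean order of the levels was Arg1 at 21.46 ± 36.88, Slc7a2 at 14.26 ± 3.708, Odc1 at 8.136 ± 1.444, Ass1 at 1.698 ± 0.6229, Arg2 at 0.6393 ± 0.8298 and Nos2 at 0.07879 ± 0.08457 CPM per kb (SD, n = 146 each). The leading place of Arg1 was set by its upper tail, because its median of 7.67 CPM per kb was below the Slc7a2 median of 13.95 CPM per kb. Arg1 was above Slc7a2 per kb in 55 libraries, above Odc1 in 70 and above Ass1 in 112. Slc7a2 was above Odc1 in 140 libraries and both were above Ass1 in all 146, so the order of those 3 was nearly fixed. Between the arginases, Arg1 was above Arg2 per kb in 135 libraries and Arg2 above Arg1 in 11. The share of Arg1 in the summed arginase level per kb had a median of 95.8% and a range of 0.948% to 100%. Arg1 was above Nos2 in 144 libraries and Arg2 above Nos2 in 139.

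The spread of each gene was described by the ratio of its 90th to its 10th percentile over libraries. The ratio was 144.4 for Arg1, between percentiles of 131.2 and 0.9083 CPM, and it was the 36th largest among 12060 genes, above 99.7% of them. The ratio was 17.83 for Arg2 and 10.73 for Nos2, above 99% and 98.2% of genes, though both are widened by small counts. It was 2.155 for Ass1, 1.805 for Slc7a2 and 1.535 for Odc1, against a median of 1.437 over all genes tested. These ratios were above 79.6%, 72.6% and 60% of genes. Within single plates the ratio for Arg1 lay between 10.3 on plate 1, which has 6 libraries, and 196.9 on plate 8.

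No single set of mice held the high or the low Arg1 values. Arg1 was under 1 CPM in 16 libraries, from 1 to under 10 CPM in 43, from 10 to under 100 CPM in 66 and at 100 CPM or more in 21. The 10 highest libraries held 42.7% of the summed Arg1 CPM. The 16 lowest came from 11 dates and 5 plates, and the 21 highest from 12 dates and 6 plates. The library with the lowest value, male 35 on plate 4, had 1 Arg1 count among 66.7 M, while its Slc7a2 level was 131.9 CPM, its Odc1 level 25.68 CPM and its Ass1 level 2.988 CPM. The library with the highest value, female 14 on plate 10, had 17359 Arg1 counts among 37 M, with Slc7a2 at 138 CPM, Odc1 at 26.2 CPM and Ass1 at 10.35 CPM. The fold between these libraries was 32144 for Arg1, with an exact Poisson 95% interval of 5769 to 1269613 for the single count of the lower one, which covers counting error only, while their Slc7a2 and Odc1 levels were close to each other. In bulk RNA, fewer cells that express a gene and less of its RNA per cell cannot be told apart.

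Mice of the same collection date differed widely in Arg1. Over the 17 dates with at least 4 libraries, the highest library was above the lowest by a fold of 4.042 to 11769.9, with a median fold of 92.92. The largest of these folds rests on the library with 1 count and has an interval of 2113 to 464929 by the same measure. The date labelled 17/03/2011 had the widest range. Its 8 libraries had Arg1 at 0.01502, 0.4925, 1.746, 1.986, 4.123, 9.958, 135.9 and 176.8 CPM. Of these, 2 libraries stood far above the other 6, and they came from plates 4 and 7, each of which also held low libraries of that date. The date labelled 22/07/2010 had the narrowest range, with Arg1 at 55.46, 63.84, 116.2, 185.6 and 224.2 CPM in its 5 libraries. Date medians lay between 1.083 CPM for 24/02/2011 (n = 2) and 172.6 CPM for 2011-02-06 (n = 3). Some labels are written year first and the order of day and month in them is not known, so all were used as names of groups, not as calendar days. On 3 dates a library under 1 CPM and one at 100 CPM or more occurred together.

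**Figure D2:**
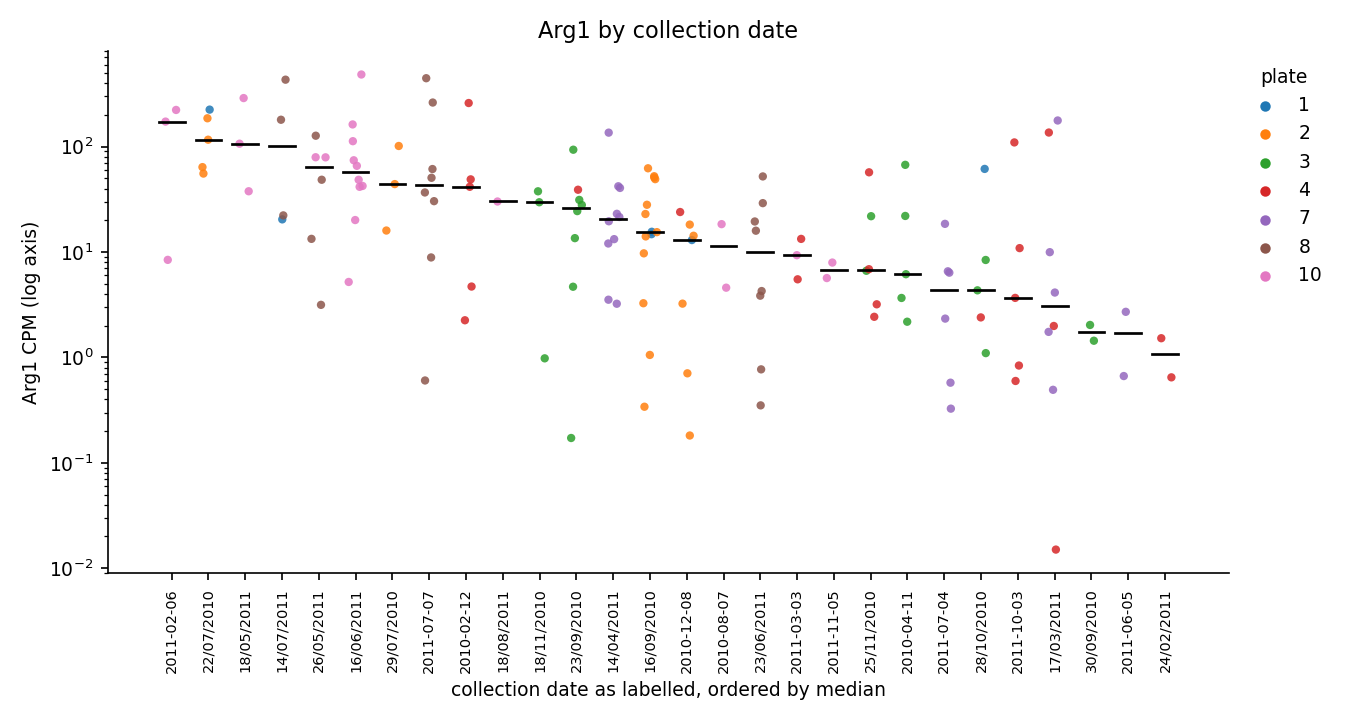
Arg1 CPM (y, log axis) in each library, by collection date as labelled and ordered by the date median (x); colours mark the plate and black bars the median. Values on most dates span more than 10-fold, and 17/03/2011 spans 0.01502 to 176.8 CPM.

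Differences between plates and between dates were tested for all genes by edgeR's quasi-likelihood test with Benjamini-Hochberg adjustment over all genes tested, and a gene is called at an adjusted p under 0.05. Arg1 medians by plate were 17.97 CPM on plate 1, 20.56 on plate 2, 7.515 on plate 3, 5.102 on plate 4, 6.557 on plate 7, 29.07 on plate 8 and 45.36 CPM on plate 10. The libraries of all plates overlapped. Plate was called for 4 of the 6 genes, with an adjusted p of 0.00302 for Arg1, 0.000558 for Nos2, 0.00647 for Odc1 and 0.000316 for Ass1, and not for Slc7a2 at 0.0757 or Arg2 at 0.271. As 74.8% of all genes tested were called by plate, this count is near the background and says nothing particular about arginine metabolism. With collection date in the model the adjusted p for plate was 0.285 to 0.904 for the 6 genes, none of which had an unadjusted p under 0.05 by edgeR, and 1332 genes were called.

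Collection date, fitted beside plate and sex with 27 coefficients, was called for 5 of the 6 genes, where 69.2% of all genes were called. The adjusted p by edgeR's quasi-likelihood test was 0.000187 for Nos2, 0.000594 for Slc7a2, 0.00135 for Arg2, 0.00852 for Odc1, 0.00907 for Arg1 and 0.495 for Ass1. With lane within plate in the model 2 of the 6 genes were still called, a share near that of all genes, of which 4314 of 12060 were called. These were Slc7a2 at an adjusted p of 0.02 and Odc1 at 0.00894 by the same test, and Arg1 had 0.0723. Date labels alone held 22.3% of the variance of log2 CPM of Arg1 and 33.2% of that of Nos2 as adjusted R2, against a median of 25.4% over all genes. Sex held less than 1% for Arg1, Arg2 and Nos2, and 7.2% to 9.12% for Odc1, Slc7a2 and Ass1, where the median gene had 0.234%. Plate, date and sex together held 19.7% for Arg1, so that most of its spread lay between mice alike in these labels.

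Arg1 and Nos2, which compete for arginine in activated macrophages, varied together over the libraries. After linear removal of plate and sex from log2 CPM, their Spearman rho was 0.55 and their Pearson r 0.55 over 146 libraries, the highest of the 15 pairs. Leaving out the 2 libraries farthest from the median of Arg1 gave a rho of 0.54. The rho was 0.53 among males and 0.54 among females, and it was positive on all 7 plates, between 0.24 and 0.73. With date removed in place of plate it was 0.47. When the first principal component of all genes, which holds 20.5% of the variance, was removed as well, it was 0.24. The correlations carry no p, because the pairs belong to the pattern the genes were chosen for, and because libraries share plates and dates.

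The other pairs were weaker. Nos2 and Ass1, whose products make and recycle citrulline, had a rho of 0.33, between 0.04 and 0.56 on the 6 larger plates and -0.37 on plate 1. Nos2 and Arg2 had a rho of 0.27, which lay between 0.01 and 0.60 on the 7 plates and was thus near 0 on some. It was 0.09 with the first principal component also removed. Arg1 and Arg2, the arginases, had a rho of 0.20, with 0.04 among males and 0.33 among females, and that difference was not tested. The rho of the arginases was 0.49 on plate 2 and 0.65 on plate 10, but between -0.14 and 0.09 on every other plate. With the first principal component also removed it was -0.13. Odc1, which uses the ornithine that arginases make, had a rho of -0.19 with Arg1 and -0.17 with Arg2. Slc7a2 had no rho beyond 0.14 in absolute value with any other of the 6 genes, and Arg1 and Ass1 had a rho of 0.09. Weak correlations that involve Arg2 and Nos2 rest on sparse counts.

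**Figure D3:**
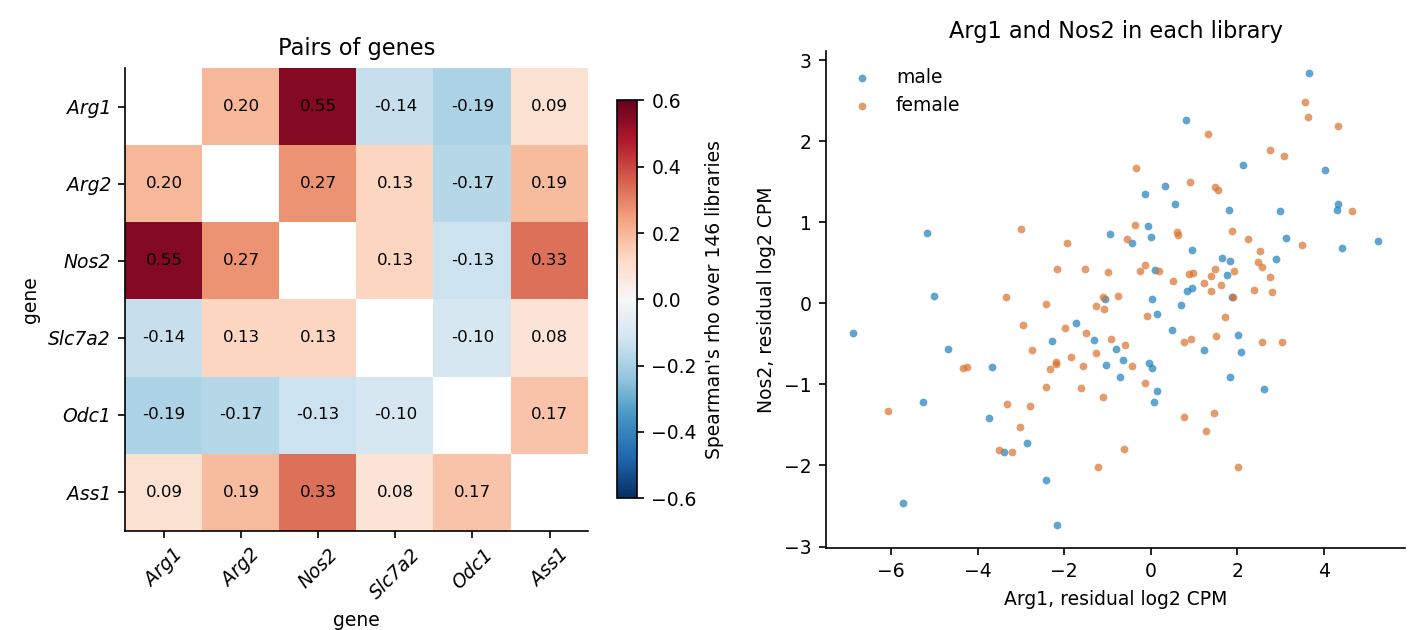
Left, Spearman's rho of each pair of genes over 146 libraries after removal of plate and sex (colour scale from -0.6 to 0.6); right, residual log2 CPM of Arg1 (x) and Nos2 (y), each point 1 library coloured by labelled sex. The Arg1 and Nos2 pair has the highest rho, 0.55, and males and females overlap.

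Many genes varied with Arg1. Over the libraries 898 of the tested genes had a rho above 0.5 with Arg1 and 946 a rho under -0.5, where the median gene had 77 and 45 such partners and 92.2% of genes had fewer than Arg1. Nos2 had 227 and 234 such partners. Slc7a2 had 5 and 1, Ass1 2 and 0, Arg2 1 and 0, and Odc1 none in either direction. The rho of Arg1 with the first principal component of all genes was 0.748 in absolute value and that of Nos2 0.539, against 0.344 for the median gene and 0.0679 and 0.0144 for Slc7a2 and Ass1. Library depth had a rho of -0.109 with Arg1.

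Among the genes most like Arg1 were F13a1 with a rho of 0.85, F5 with 0.82, F10 with 0.81, Plbd1 with 0.81 and Srgn with 0.79, out of 10527 genes with a mean of at least 1 CPM. F13a1 encodes a chain of coagulation factor XIII and averaged 1551.6 ± 849.5 CPM (SD, n = 146). Its rho with Arg1 lay between 0.76 and 0.86 on every plate, whereas the lowest plate had 0.43 for F5 and F10, 0.14 for Srgn and 0.03 for Plbd1. F5 and F10 encode coagulation factors V and X, and Srgn encodes the granule proteoglycan serglycin. The most opposed genes were Aldh9a1 at -0.81, Cds1 at -0.80, Reep5 at -0.78 and Tmem109 at -0.77. Aldh9a1 encodes an aldehyde dehydrogenase and Cds1 a synthase of CDP-diacylglycerol, and Aldh9a1 was between -0.92 and -0.69 on every plate.

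The genes most like Nos2 were Ero1l with a rho of 0.70, Gpi1 with 0.69, Arrdc4 and Bsg with 0.67, and Fxyd5 and Lsr with 0.65. Gpi1 encodes a glycolytic isomerase, Bsg the chaperone of lactate transporters and Ero1l an oxidase of the endoplasmic reticulum. Within plates the rho of Ero1l lay between -0.14 and 0.76 and that of Gpi1 between 0.33 and 0.80. The counts of Lsr are uncertain, since 44.7% of its exon bases overlap other genes. Coprs and Mfsd1 at -0.63 and Ran and Slc25a5 at -0.62 were most opposed, and Slc25a5 is uncertain through shared sequence. Arg2 had weaker neighbours, Mpp5 at 0.50, Birc3 at 0.49, Zfp868 at 0.48, Il1f9 and Zfp597 at 0.46 and Mefv at 0.45, with Ssbp4 lowest at -0.44, then Med9 and Cltb at -0.43 and Lhpp at -0.42. Birc3 encodes an inhibitor of apoptosis that NF-kB induces, Il1f9 an interleukin-1 family cytokine and Mefv the inflammasome protein pyrin. Zfp597 is uncertain through overlap. Within plates the rho of Mpp5 lay between -0.03 and 0.73 and that of Birc3 between -0.09 and 0.65.

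Among the genes most like Slc7a2 were Sgk1 at 0.59, Tgfbr1 at 0.55, Tle1 at 0.53, Lrpap1 at 0.51 and Mtus1 at 0.50. Sgk1 encodes a kinase induced by serum and glucocorticoids, and its rho was between 0.44 and 0.89 on every plate, whereas Lrpap1 lay between -0.01 and 0.77. Tgfbr1 encodes the type I receptor for transforming growth factor beta. Dhrs1 at -0.52, Me2 at -0.46, Gstt2 at -0.44 and Elovl6 at -0.42 were most opposed to Slc7a2, and Me2 and Elovl6 encode malic enzyme of mitochondria and a fatty acid elongase.

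The genes most like Odc1 were Pqlc3 at 0.46, Gmds and Pa2g4 at 0.43, and Pdia6, Mcm10 and Srbd1 at 0.42. Pa2g4 encodes a growth-regulated RNA-binding protein and Mcm10 a DNA replication factor. Cerk at -0.47, Gnaq at -0.43 and Natd1 and Fbxo42 at -0.42 were lowest, and Cerk encodes ceramide kinase. Within plates Pqlc3 lay between 0.24 and 0.77. For Ass1 the genes were Mapk14 at 0.52, Ncf4 at 0.48, Ccnd3, H2afy and Nup210 at 0.47 and Pxylp1 at 0.46, with St13 at -0.48, Gas6 and B3galnt1 at -0.47 and Rnf13 at -0.46. Mapk14 encodes the p38 alpha kinase and Ncf4 a subunit of the NADPH oxidase of phagocytes. Within plates Mapk14 lay between 0.16 and 0.71 and Ncf4 between -0.37 and 0.71.

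Among the listed programmes, genes of hypoxia and glycolysis varied with Arg1. The median rho with Arg1 was 0.57 over the 12 hypoxia and glycolysis genes, beside a median of 0.01 over all genes tested. Of the 12 genes 7 were above 0.5, where 898 of all 12060 tested genes were. Pgk1, a glycolytic kinase, had a rho of 0.77, Vegfa, the endothelial growth factor, 0.65, Bnip3, a mitophagy receptor, 0.62, Ankrd37 and Adm, the adrenomedullin gene, 0.61, Ndrg1 0.58 and Egln3, an oxygen-sensing hydroxylase, 0.57. The rest were lower, with P4ha1 at 0.34, Ldha at 0.31, Pdk1 at 0.27, Slc2a1 at 0.11 and Hif1a itself at -0.31. Pgk1, Bnip3 and Ankrd37 are uncertain through shared or overlapping sequence. With Nos2 the median of that list was 0.40 and 4 genes were above 0.5, where 227 of all 12060 tested genes were.

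Of the 19 listed genes of alternative activation 15 were tested, and Retnla and Ccl17 were among those too low to test. The 15 genes had a median rho of 0.23 with Arg1, and 4 were above 0.5, where 898 of all 12060 tested genes were. The genes above 0.5 were Irf4, a transcription factor downstream of interleukin-4, at 0.71, Klf4 at 0.61, Egr2 at 0.58 and Chil3 at 0.52. Chil3 encodes the chitinase-like protein Ym1 and is uncertain through shared sequence. Mrc1, the mannose receptor, had 0.22 and Stat6, the factor that interleukin-4 activates, 0.08, while Il4ra had 0.04 and Socs2 -0.09. The 11 inflammatory genes had a median of 0.17, with Socs3 at 0.63 and Cd40 at 0.61 at one end and Tnf at -0.48 and Cxcl10 at -0.41 at the other. Nos2 had medians of 0.23 and 0.31 with the same lists.

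Marker sums of most cells other than mature macrophages moved with Arg1. The T and NK cell sum did so only weakly, and the erythroid sum went the other way. Of the 9 tested granulocyte precursor markers 5 had a rho above 0.5 with Arg1, where 898 of all 12060 tested genes did. The highest were Prtn3 at 0.62, Ctsg at 0.59 and Elane at 0.55, which encode proteases of neutrophil granules. Mpo had 0.38, Ltf 0.19 and Camp 0.14. The summed level of all 10 markers had a rho of 0.54 with Arg1, 0.43 with Nos2, 0.43 with Ass1, 0.33 with Arg2, -0.13 with Slc7a2 and 0.04 with Odc1, and no marker was at 0 in all libraries. Its plate medians lay between 282.5 and 469.1 CPM. The 7 macrophage markers had a median rho of -0.14 with Arg1 and did not move as 1 group. Mertk, a receptor of mature macrophages for apoptotic cells, had a rho of -0.57 with Arg1 and Csf1r -0.47. Fcgr1 had -0.22, Cd68 -0.14 and Adgre1 0.00, whereas Itgam, a myeloid integrin and uncertain through overlap, had 0.79. The summed B cell markers had a rho of 0.71 with Arg1, at 0.6088 to 9.688 CPM, the megakaryocyte markers 0.63, the osteoclast markers 0.57, the dendritic cell markers 0.48, the mast cell and basophil markers, of which 1 of 4 was at 0 in every library, 0.44, the stromal markers 0.43 and the T and NK cell markers 0.19. The erythroid markers had -0.39 and the summed macrophage markers -0.07. That macrophage sum is weighted to Lyz2, which averaged 10019.7 CPM and had a rho of -0.11 with Arg1. The part of any of these cells in the Arg1 spread was not tested.

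**Figure D4:**
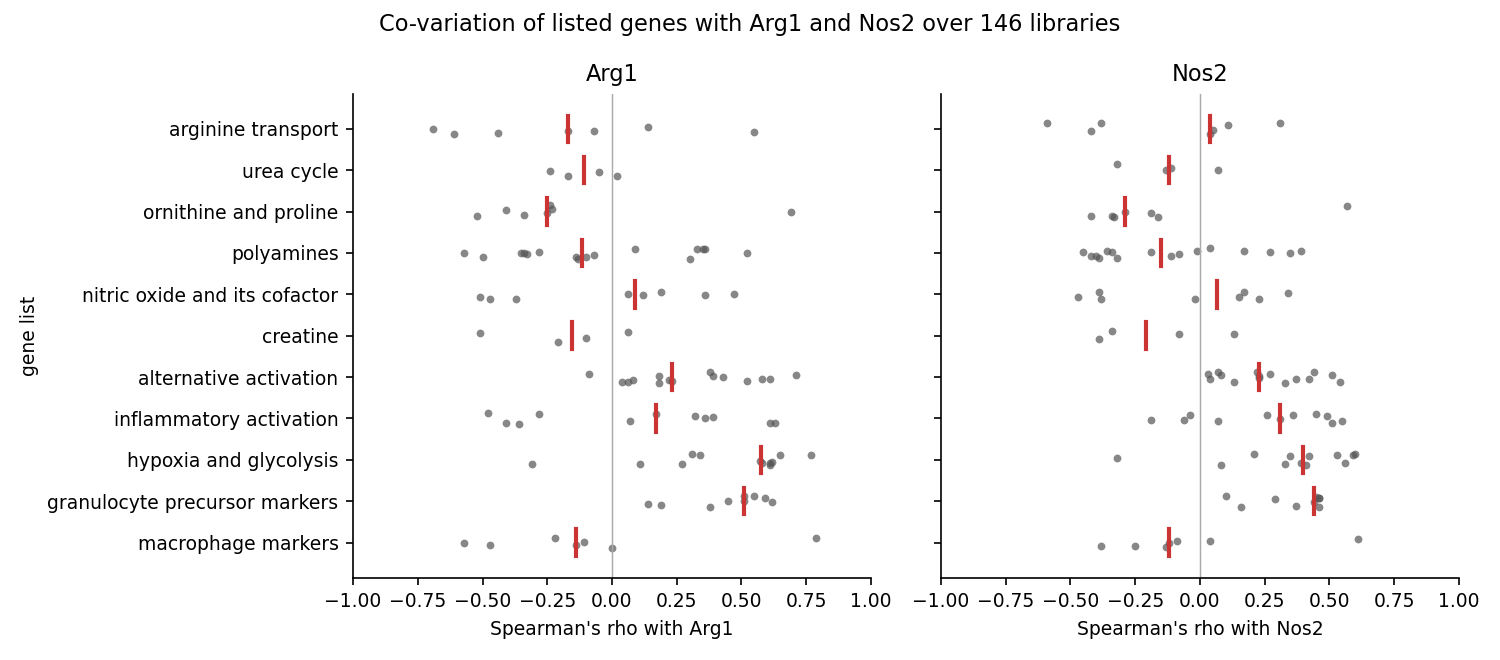
Spearman's rho over 146 libraries of each listed gene (grey point) with Arg1 (left) and Nos2 (right), by gene list; red bars mark the list medians. The hypoxia and glycolysis list has a median of 0.57 with Arg1, while the lists of arginine, proline, polyamine and creatine metabolism lie around or below 0.

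Of 46 other tested genes of arginine handling, Pycr1, Slc7a3 and Oaz2 had a rho above 0.5 with Arg1, and more had one under -0.5. Such values were common, as 898 of all 12060 tested genes lay above 0.5 with Arg1 and 946 under -0.5. They are therefore not particular to arginine handling. Pycr1, which makes proline, had a rho of 0.69 with Arg1 and 0.57 with Nos2. Slc7a3, a cationic transporter at a mean of 0.4723 CPM, had 0.55 and Oaz2, an antizyme that restrains ornithine decarboxylase, 0.52 with Arg1. The transporters Slc7a6 and Slc7a7, which exchange arginine through the Slc3a2 heterodimer, had -0.69 and -0.61, the spermidine synthase gene Srm -0.57, Pycrl -0.52, and Spr, of tetrahydrobiopterin synthesis, and Gamt, of creatine synthesis, -0.51. Asl, the enzyme that follows Ass1, had a rho of 0.07 with Ass1. Slc7a1, the other main cationic transporter, averaged 184.3 ± 49.07 CPM (SD, n = 146) and had a rho of 0.12 with Slc7a2.

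Between the sexes, the transporter Slc7a2 and the synthase Ass1 were lower in males, and the arginases and Nos2 were not called. Slc7a2 had a lowest, median and highest level of 64.5, 113.7 and 196.8 CPM in males, against 63.01, 136.8 and 255.2 CPM in females. The ranges overlapped almost wholly. Its mean was 118.7 ± 27.67 CPM over the 60 males, against 138.3 ± 35.58 CPM over the 86 females (± SD). The difference of males minus females was -0.24 on the log2 scale with an SE of 0.06, a 95% interval of -0.36 to -0.13 and an adjusted p of 0.00668 by edgeR's quasi-likelihood test with plate as covariate. Slc7a2 was lower in males on 6 of 7 plates, and on plate 8 the difference was 0.10. Without plate 2 the difference was -0.19 with an adjusted p of 0.0684 by the same test. The call was thus lost without that plate, though the difference kept its sign.

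Ass1 had a lowest, median and highest level of 1.405, 3.495 and 7.654 CPM in males, against 1.693, 4.244 and 12.63 CPM in females, again with wide overlap. Its mean was 3.581 ± 1.123 CPM over the 60 males, against 4.461 ± 1.631 CPM over the 86 females (± SD). The log2 difference was -0.32 with an SE of 0.08 and an interval of -0.47 to -0.18, the adjusted p by edgeR was 0.00323, and males were lower on 7 of 7 plates. Odc1 averaged 26.1 ± 4.912 CPM over the 60 males, against 28.82 ± 4.627 CPM over the 86 females (± SD), with a log2 difference of -0.12, SE 0.04. Its adjusted p by edgeR was 0.0643, which did not pass the threshold, and males were lower on 7 of 7 plates.

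**Figure D5:**
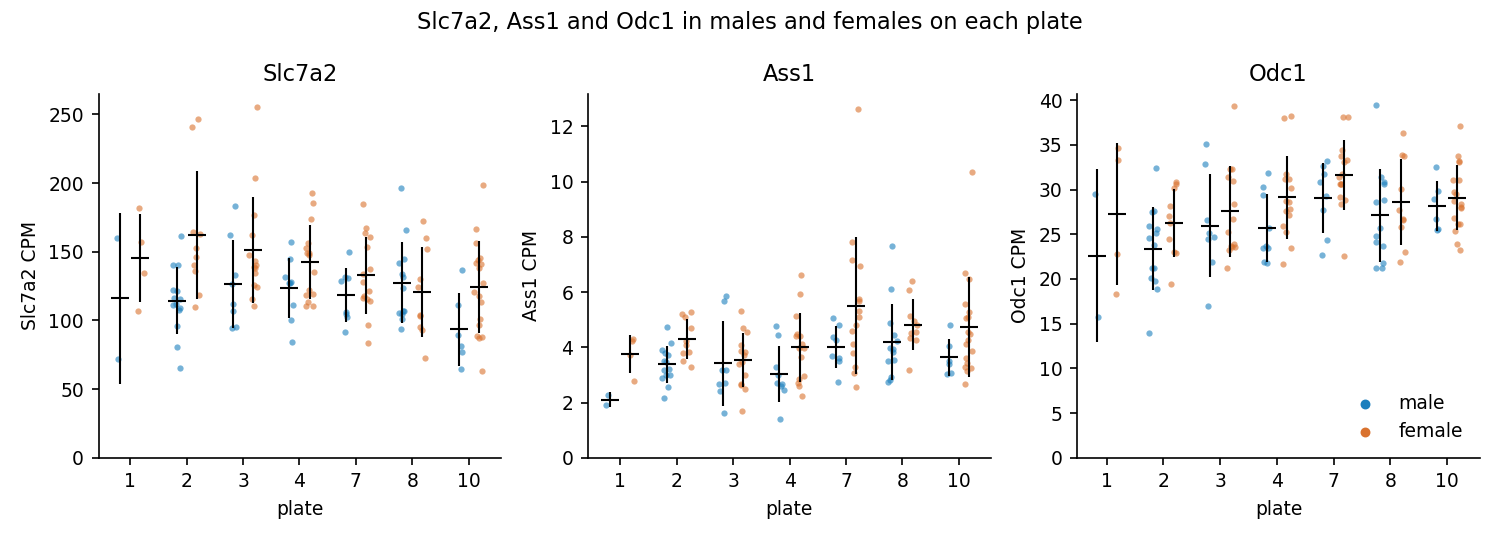
CPM of Slc7a2, Ass1 and Odc1 (y) by plate (x) in males (blue, left of each pair) and females (orange); each point is 1 library and bars show the mean ± SD. Male means lie under female means on each plate for Ass1 and Odc1, and on all plates but plate 8 for Slc7a2.

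For Arg1, males had a lowest, median and highest level of 0.01502, 19.84 and 445.2 CPM, and females 0.1815, 15.74 and 482.8 CPM. The log2 difference was 0.23 with an SE of 0.38 and an interval of -0.51 to 0.98, and the adjusted p by edgeR was 0.762. The interval is wide beside those of Slc7a2 and Ass1. The sign of the Arg1 difference turned with the method, to -0.27 by limma voom, and males were lower on 3 plates and higher on 4. Arg2 averaged 1.036 ± 1.104 CPM in males and 0.8269 ± 1.237 CPM in females (SD, n = 60 and 86), and Nos2 averaged 0.3351 ± 0.3659 CPM in males and 0.3564 ± 0.38 CPM in females. Their adjusted p by edgeR was 0.616 and 0.806.

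Sex was thus called for 2 of the 6 genes, both lower in males, where 2.84% of all genes tested were called lower in males and 5.02% in either direction. Without the 6 libraries that go against their sex label the same test gave log2 differences of -0.28 for Slc7a2, -0.35 for Ass1 and -0.14 for Odc1, with adjusted p of 0.000837, 0.0013 and 0.0211 by edgeR, so that Odc1 was called as well. Granulocyte precursor markers summed to 77.75, 296.8 and 1418.3 CPM as lowest, median and highest in males and 97.26, 384.9 and 1672.4 CPM in females, and 1 of 9 tested markers, Mpo, was called lower in males. With the log2 of that sum as a covariate Slc7a2 had a difference of -0.27, with an adjusted p of 0.00254 by edgeR, and Ass1 one of -0.23, with an adjusted p of 0.026. Stromal markers summed to 1.54, 6.349 and 18.69 CPM in males and 2.253, 9.526 and 72.46 CPM in females, and 3 of 4 tested markers were called lower in males. Their part in the sex difference was not tested.

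The sex difference was not shown to vary between plates. In the sex-by-plate interaction none of the 6 genes was called, with an adjusted p of 0.996 each by edgeR's quasi-likelihood test, none had an unadjusted p under 0.05, and 0.0415% of all genes tested were called. No other tool was run for the interaction.

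Elsewhere in arginine handling, sex differences were small. Of the 46 tested genes, 2 were higher in males and 1 was lower, and their median log2 difference was -0.01, beside 0.00 over all genes. Slc3a2, the heavy chain of several amino acid transporters, was higher in males by 0.09 and Slc38a9, the lysosomal arginine sensor, by 0.07 on the log2 scale, with adjusted p of 0.0392 and 0.0244 by edgeR. Prodh, which degrades proline, was lower in males at a log2 difference of -0.21, where the adjusted p was 0.00737. Plate was called for 35 and date for 31 of the 46 genes, beside the 74.8% and 69.2% of all genes tested and the 5.02% called by sex. All 3 counts are near that background. In the alternative activation list Mrc1 was higher in males by 0.64 with an adjusted p of 3.09e-05 and Cd163, a haemoglobin scavenger receptor, by 0.28 with 0.0201, while in the inflammatory list Ptgs2, the inducible cyclooxygenase, was lower in males at a log2 difference of -0.45, where it was 0.0443, all by edgeR.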

How the data were processed

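Per the submitters' processing notes, reads were aligned to GRCm38 (mm10) with TopHat2 2.0.11 and counted per gene with HTSeq 0.6.1. The strand and overlap settings of the counting are not given in the sources used here. The deposited table of raw counts (22721 genes, 146 libraries) gave all values, except that the authors' deposited log2 values after variance stabilisation with DESeq2 (10893 genes, which hold Slc7a2, Odc1 and Ass1 of the 6) served as an alternative for correlations. Symbols came from GENCODE M21 by identifier, and 822 genes without one held 0.16% of counts.

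Counts were filtered with filterByExpr, scaled by TMM and tested with edgeR 4.0.16 (R 4.3.3, quasi-likelihood). Sex was tested with plate as covariate, plate with sex, date with both, and p-values were adjusted over all genes tested. Correlations used log2 CPM with a prior count of 2. limma 3.58.1 and DESeq2 1.42.0 served as alternatives. The tests were tried on simulated data with the same dispersion for every gene, which does not cover a spread as wide as that of Arg1.

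The genes, lists and tests were chosen with earlier results of these data known. Named are all 6 genes, the 6 most and 4 least similar genes of each and up to 4 genes per list by p, except for a few genes that are not reported here. List genes named for their rho, or as too low to test, were chosen after their values were seen. Genes with 20% or more shared 50-base stretches or overlapped exon bases are called uncertain. Depth sets the error of Arg2 and Nos2, which had few counts.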

Additional observations from a re-analysis of the deposited data

Results flagged for a closer look

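Within groups of 4 to 10 libraries, of one date or on plate 1, 4 of 102 groups had a library far from the others by Dixon's test, where chance gives about 1 in 20. Ass1 was 12.63 CPM in the highest of 10 libraries of 14/04/2011, with the next at 5.767 CPM. Ass1 was 10.35 CPM in the highest of 10 libraries of 16/06/2011, with the next at 5.067 CPM, and this library, female 14, also had the highest Arg1 value. Nos2 was 0.119 CPM in the lowest of 10 libraries of 16/06/2011, with the next at 0.4012 CPM. Odc1 was 34.7 CPM in the highest of 4 libraries of 14/07/2011, with the next at 22.98 CPM.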

How the results depend on the processing

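No paired analysis was possible because each mouse gave 1 library and the replicate numbers follow accession order. Slc7a2 and Ass1 stayed called by sex under each alternative for covariates, scaling, filter and tool, and without each plate but plate 2, where 1 of them, Ass1, was left; Odc1 was called under limma voom, date in place of plate, lane within plate, no covariate and without the libraries against their label. The Arg1 sex difference turned to -0.27 by limma voom, -0.08 with no covariate and -0.17 without plate 4, and that of Nos2 to 0.14 with the granulocyte sum, an alternative added after seeing the data; none of these was called and the cause was not tested. Genes called by sex numbered 605, against 948 with lane within plate, 926 without the libraries against their label, 1496 with the granulocyte sum, and 401, 356, 229 and 298 without plates 1, 3, 4 and 7. By plate with date in the model, 0 of the 6 genes and 1332 of all were called; by date with lane within plate, 2 and 4314. Without the libraries against their label the interaction was called for 1 gene in place of 5. The Arg1 percentile ratio of 144.4 was 10.3, 32.68, 70.3 and 32.73 within plates 1, 3, 7 and 10, and the rho of Arg1 and Nos2 was 0.27 and 0.24 within plates 3 and 4, and 0.24 with the first principal component removed, which was also added after seeing the data. Depth limits Nos2 and Arg2.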

Other observations

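Some of the genes most like Odc1, Arg2 and Slc7a2 lie near them on the chromosome. Pqlc3, 544 kb from Odc1, ranked 2nd by absolute rho with it among 10527 genes, and Pdia6, 260 kb away, ranked 6th. Mpp5, 290 kb from Arg2, ranked 1st for Arg2, with a rho of 0.50 and 0.40 after removal of date. Vti1b, whose exons overlap those of Arg2, ranked 12th with a rho of 0.43, and at a mean of 76.48 CPM it lies far above Arg2, whose counts are uncertain for that overlap. Mtus1, 68.6 kb from Slc7a2, ranked 7th for Slc7a2 with a rho of 0.50. Within 1 Mb of Ass1, Ptges ranked 59th. None of the 6 genes within 1 Mb of Arg1 and none of the 30 within 1 Mb of Nos2 was among the 100 highest by absolute rho. As those 100 are a small share of the 10527 genes, none among so few is near the background. It does not set Arg1 and Nos2 apart. Over all genes within 1 Mb the median absolute rho was 0.336 for Arg1, 0.24 for Nos2, 0.197 for Odc1, 0.149 for Arg2, 0.106 for Slc7a2 and 0.105 for Ass1, beside 0.279, 0.213, 0.128, 0.151, 0.0993 and 0.0936 over the genes elsewhere. Genotypes of these outbred mice were not analysed here.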
